A study of Mus musculus with 6 samples.

Results

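The genes of 2 families of retrieval and cargo receptors in the early secretory pathway were followed in mouse liver: the KDEL receptors Kdelr1, Kdelr2 and Kdelr3, and the p24 proteins Tmed2, Tmed3, Tmed4, Tmed7, Tmed9 and Tmed10. Members were taken by gene symbol from the array's annotation, which named 16 of the 45281 probes for 8 of these 9 genes. Tmed7 was not analysed here. Of the 16 probes, 13 for 7 genes were above the detection level on at least 1 array, and 11 were above it on all 6. Where a gene had several probes, they are numbered from the brightest.

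Illumina bead arrays were used to measure liver RNA of FVB mice aged 10 weeks, with 1 pooled sample on 1 array for each of 6 groups. LIXs mice carry a transgene behind a promoter that doxycycline (Dox) switches on; it encodes Xbp1s, the product of the spliced Xbp1 transcript and a transcription factor of the unfolded protein response. Mice labelled LIXs and wild type (WT) both received Dox chow for 24 h or 48 h and then went 6 h without food. A further 2 WT pools came from mice refed for 2 h and from mice fasted for 24 h, for which the labels name no Dox. No source used here gives the driver of the Dox-dependent activator or the number of mice in a pool.

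KDEL receptors bind the short tail sequence that marks soluble residents of the endoplasmic reticulum (ER), such as chaperones and protein disulfide isomerases, and carry escaped copies back from the Golgi in COPI-coated vesicles. The p24 proteins are small membrane proteins that assemble into mixed oligomers, shuttle between ER and Golgi, and help select cargo, including proteins with a glycosylphosphatidylinositol (GPI) anchor. Hepatocytes secrete most plasma proteins and depend on this traffic, and several of its genes are known to respond to ER stress.

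Levels are given as the authors' deposited linear intensities. Differences are on the log2 scale after background correction, so they exceed the ratio of the deposited values for dim probes, and levels of different probes are not compared with each other. The detection level was an intensity of 126. Between 13145 and 13225 probes passed this level per array. The induced gene, Xbp1, has 1 probe, which read 4537 and 4350 on the arrays labelled LIXs at 24 h and 48 h, and 4259 and 5210 on those labelled WT. The averaged difference was -0.086 ± 0.22 (SE, limma adjusted p = 0.85). This probe leaves the genotype labels unchecked. Xbp1s is known to induce genes of ER protein handling, and the members and ER genes that passed the test below were lower on the arrays labelled LIXs, opposite to that known action. If the genotype labels of the Dox arrays were exchanged, the sign of every LIXs minus WT difference below would turn. Kdelr3 would then be 3.41-fold higher with the transgene. Differences between the refed and fasted arrays would stay, and values given for WT on Dox would belong to the other genotype. Whether the labels were exchanged was not tested, and "fell" and "rose" refer to the arrays labelled LIXs relative to those labelled WT. Of 8 hepatocyte markers 7 were detected on all arrays, with summed intensities between 92416 and 141251. All 7 had an averaged difference above 0, with a median of 0.51, and 0 passed the limma test. Over all named genes 49.3% were below 0. The largest of the 7, Alb at 0.68, came from a probe that read between 130 and 163, near the detection level. The brightest, Apoa1, Ttr and Cyp2e1, differed by 0.081, 0.071 and 0.19. Hepatocyte sums were 141251 and 127381 on the arrays labelled LIXs at 24 h and 48 h, and 121229 and 117836 on those labelled WT. The array labelled LIXs at 24 h stood apart by pancreatic acinar genes: the summed intensity of 13 measured markers was 34793 there and between 12477 and 14363 on the other 5 arrays. All 13 were detected on at least 1 array and 8 on all 6. Most of the sum on the other 5 arrays came from Amy2a5. It read between 10276 and 10962 on them and 19880 on the array labelled LIXs at 24 h. Macrophage, sinusoidal endothelial and stellate markers had summed intensities of 2096, 6173 and 5493 on that array against 1724, 5059 and 4387 on the array labelled WT at 24 h. At 48 h they were 1859, 6341 and 5404 under the LIXs label against 1713, 5083 and 4450 under the WT label. Cholangiocyte markers summed to 563 under the LIXs label and 579 under the WT label at 24 h, and to 656 and 719 at 48 h. The lymphocyte and plasma cell markers summed to 226 and 230 at 24 h, and to 221 and 230 at 48 h. Only 1 of the 4 cholangiocyte markers with a probe was detected on all 6 arrays. Of the lymphocyte and plasma cell markers, 2 had a probe and 0 were detected on all 6. These last sums are thus mostly background and do not show equal cell content. The part of these markers in the receptor values was not tested. Fewer cells of a type and less RNA per cell cannot be told apart in these bulk samples.

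Among the KDEL receptors, Kdelr3 had the largest difference between the genotype labels. Kdelr3 encodes the receptor isoform best known for its induction by ER stress. The Kdelr3 probe read 472 and 615 on the arrays labelled LIXs at 24 h and 48 h, and 1068 and 2452 on those labelled WT. The refed and fasted WT arrays read 501 and 557. Both WT arrays on Dox were thus above the other 4, and the LIXs arrays lay on either side of the refed and fasted ones. Averaged over both times, the log2 signal of Kdelr3 fell by 1.77 ± 0.25 (SE, n = 2 arrays for each label, limma), which is 3.41-fold. The 95% interval ran from -2.33 to -1.21, with a limma adjusted p of 0.0445 over 13353 probes, among which it ranked 5 from the lowest. The 24 h pair differed by -1.37 and the 48 h pair by -2.17, and the array labelled WT at 48 h was 2.42-fold above the one at 24 h.

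Kdelr2, the widely expressed isoform, was also lower under the LIXs label at each time, by amounts that did not pass the test. Its first probe read 665 and 917 on the arrays labelled LIXs at 24 h and 48 h, and 1324 and 1056 on those labelled WT. The refed and fasted arrays, at 646 and 495, were below all Dox arrays. The averaged difference was -0.66 ± 0.26 (adjusted p = 0.139), with a 95% interval from -1.24 to -0.092. It was -1.11 at 24 h and -0.22 at 48 h, so the genotype labels were well apart at 24 h and close at 48 h. The second Kdelr2 probe, between 98.9 and 117, and the single Kdelr1 probe, between 103 and 123, were below the detection level on every array. No difference is given for them, and they do not show that Kdelr1, the other widely expressed isoform, was absent.

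Among the p24 genes, both probes of Tmed3 were lower under the LIXs label. Tmed3 encodes a p24 protein of the gamma subfamily. The first Tmed3 probe read 319 and 493 on the arrays labelled LIXs at 24 h and 48 h, and 1082 and 708 on those labelled WT. The second read 271 and 363 against 637 and 641. For both probes the 2 WT arrays on Dox were above the other 4 arrays, since the refed and fasted arrays read 297 and 331 on the first and 260 and 422 on the second. The second probe fell by 1.31 ± 0.23 (SE, 2 arrays per label, limma adjusted p = 0.0445), or 2.49-fold. The first had a larger average, -1.37 ± 0.32, but a wider error, and missed the threshold with an adjusted p of 0.0518. Its difference was -2.13 at 24 h and -0.62 at 48 h, and that of the second probe was -1.61 and -1.02.

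**Figure D1:**
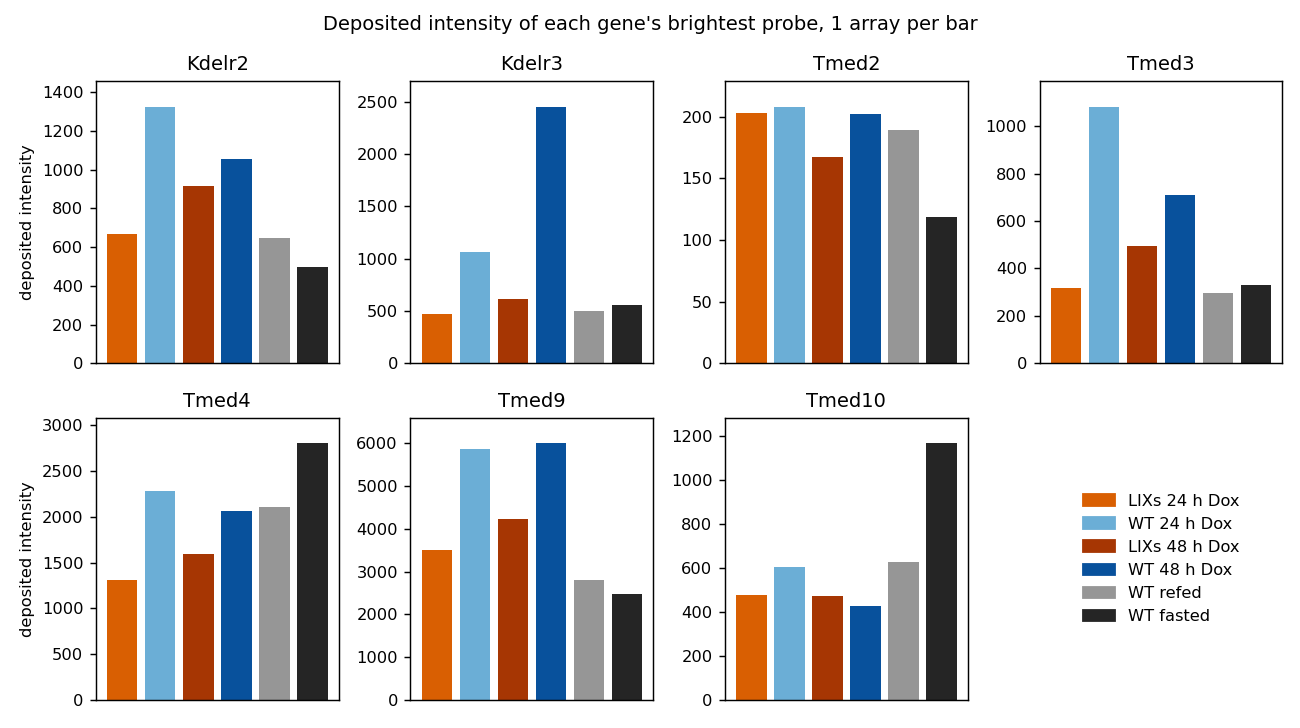
Bars give the deposited linear intensity of the brightest probe of each detected gene on each of the 6 arrays, with 1 array per group and so no error bar; each panel has its own axis from 0. For Kdelr2, Kdelr3, Tmed3 and Tmed9 both WT arrays on Dox stand above the other 4, while Tmed4 and Tmed10 are highest on the fasted array.

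Tmed9 and Tmed4, both of the alpha subfamily of p24 proteins, were moderately lower under the LIXs label at each time. The first Tmed9 probe read 3500 and 4224 on the arrays labelled LIXs at 24 h and 48 h, and 5861 and 5993 on those labelled WT. The refed and fasted arrays were lowest, at 2803 and 2466. The averaged difference was -0.64 ± 0.22 (95% interval -1.12 to -0.15, adjusted p = 0.105). The second Tmed9 probe lay between 118 and 135, next to the detection level of 126, and its -0.14 ± 0.21 carries little information.

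Tmed4 had 4 detected probes, which agreed in direction at both times. The first read 1307 and 1595 on the arrays labelled LIXs at 24 h and 48 h, and 2287 and 2067 on those labelled WT. The refed and fasted arrays read 2105 and 2803, so for this gene the LIXs arrays were the 2 lowest of the 6. The averaged differences of the 4 probes lay between -0.76 and -0.57, with adjusted p between 0.0797 and 0.136. None passed, although each 95% interval was below 0 (for the first probe, from -1.13 to -0.12). These probes report 1 gene and are not independent measurements of the receptor family.

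Tmed2 and Tmed10 encode the beta and delta subfamily members that pair with the other p24 proteins, and differed least between the genotype labels. Tmed2 read 203 and 167 on the arrays labelled LIXs at 24 h and 48 h, and 208 and 202 on those labelled WT. Its averaged difference was -0.32 ± 0.23 (95% interval -0.83 to 0.19, adjusted p = 0.417). The first Tmed10 probe read 476 and 474 against 606 and 425, and the second 674 and 583 against 716 and 547. On both Tmed10 probes the genotype labels overlapped, with averages of -0.11 ± 0.24 (95% interval -0.64 to 0.41, adjusted p = 0.807) and 0.0046 ± 0.22 (-0.48 to 0.49, adjusted p = 0.993). The intervals for Tmed2 and the first Tmed10 probe reach down to -0.83 and -0.64, so they do not show equal levels. The third Tmed10 probe, between 95.4 and 110, was not detected.

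**Figure D2:**
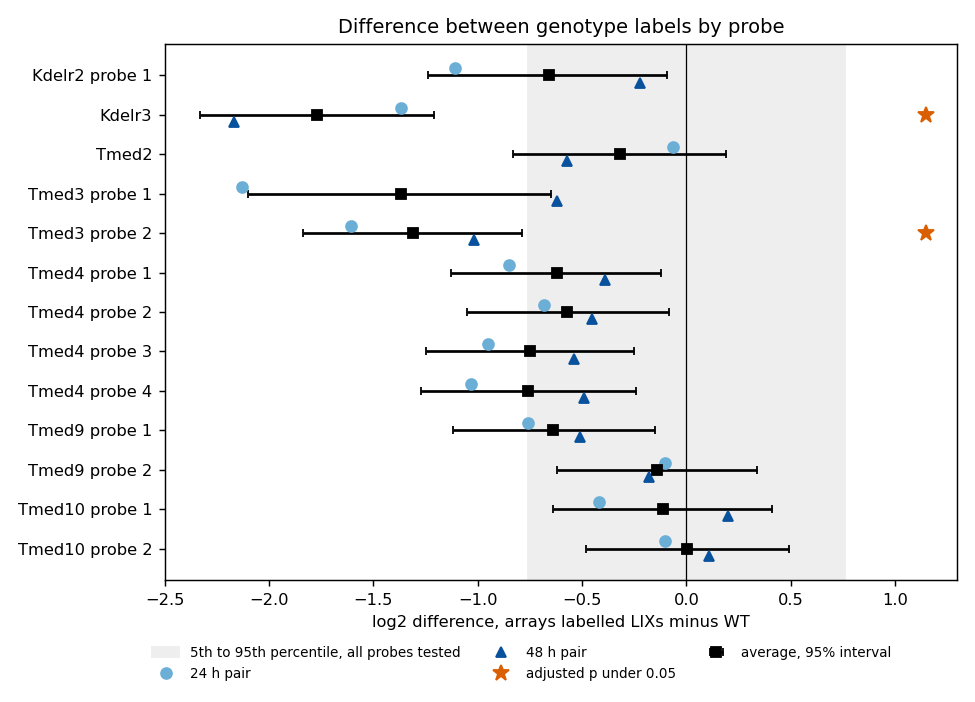
Log2 differences between arrays labelled LIXs and WT for the 13 probes in the averaged comparison: squares with bars are the average and its 95% interval from limma, circles the 24 h pair, triangles the 48 h pair, and the grey band spans the 5th to 95th percentile of all 13353 probes, from -0.76 to 0.76. Stars mark Kdelr3 and the second Tmed3 probe, the 2 probes with an adjusted p under 0.05.

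Over both families, 2 of 13 probes fell and 0 rose, where 1.37% of all probes tested fell and 1.21% rose. The median averaged difference of the 13 probes was -0.64, beside 0.011 over all probes. The differences were below 0 at 24 h for all 13 probes and at 48 h for 11, so that 11 were below 0 at both times, against 33.0% of all probes. Both WT arrays on Dox were above both LIXs arrays for 9 of the 13, against 25.8%. The 13 probes come from 7 genes, with 4 of the probes from Tmed4, and with so few arrays each value is imprecise. The members were chosen with earlier results of these data known. Their counts, here and below, thus describe them and are no test of the families against all probes. The count that passed depended on the error model, the filter and the background step. It was 0 without time as a block, without a filter on dim probes, and at a lower detection level of 121. It was 8 with a prior variance that follows the signal, without background correction, and with an offset of 50. With median centring it stayed at 2. Every probe except the second of Tmed9 and those of Tmed10 stayed below 0 under every alternative run.

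The difference was larger at 24 h than at 48 h for 9 of the 13 probes, as it was for 55.6% of all probes. At 24 h, 5 of 13 member probes were at least 2-fold lower on the array labelled LIXs, against 4.25% of all probes detected on either array. These were Kdelr3, the first Kdelr2 probe, both Tmed3 probes and the fourth Tmed4 probe, at -1.03. At 48 h, 2 of 13 were at least 2-fold lower, Kdelr3 and the second Tmed3 probe, against 2.19%. Without background correction the counts were 3 and 1, since Kdelr2 was then at -0.99 and the fourth Tmed4 probe at -0.68 at 24 h, and the second Tmed3 probe at -0.82 at 48 h. Kdelr3 and Tmed2 were the 2 genes whose brightest probe differed more at 48 h; for Tmed2 the difference was -0.065 at 24 h and -0.57 at 48 h. With 1 array per group these pair differences have no test.

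The array labelled LIXs at 24 h, which is part of the 24 h pair, carried the pancreatic signal. Clps, the cofactor of pancreatic lipase, read 1744 there and between 152 and 374 on the other 5 arrays. The median difference of the 13 acinar markers was 3.05 at 24 h and 0.31 at 48 h, and the part of this signal in the receptor values was not tested. In a fit of the other 3 Dox arrays, which drops the array labelled LIXs at 24 h and the time block, the averaged difference was -1.54 for Kdelr3 and -1.01 for the second Tmed3 probe, both with an adjusted p of 0.622. The median of the 13 probes was then -0.57. In that limma fit 0 probes of the whole array passed, and 1009 had an unadjusted p under 0.05.

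Seen across all 6 arrays, the signal of several receptors was highest in WT mice on Dox and lower in every other pool. Both WT arrays on Dox exceeded the other 4 arrays for 6 of the 13 probes, those of Kdelr3, Tmed3 (both), the first of Kdelr2 and Tmed9, and the second of Tmed4, against 13.2% of all probes detected on at least 2 arrays. For Kdelr3 the WT Dox mean was 1.80 log2 units above the mean of the refed and fasted arrays, whereas the LIXs mean was 0.031 above it. For the first Tmed3 probe these values were 1.82 and 0.45, and for the first Tmed9 probe 1.20 and 0.56. The first Tmed4 probe had another order, with a WT Dox mean -0.17 and a LIXs mean -0.79 relative to the refed and fasted arrays. The 4 probes of Tmed4 disagreed here, since the WT Dox mean was -0.31 for the third but 0.37 for the second and 0.23 for the fourth. The refed and fasted mice also differ from the Dox groups in feeding and in Dox, which cannot be told apart, and these values had no test.

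**Figure D3:**
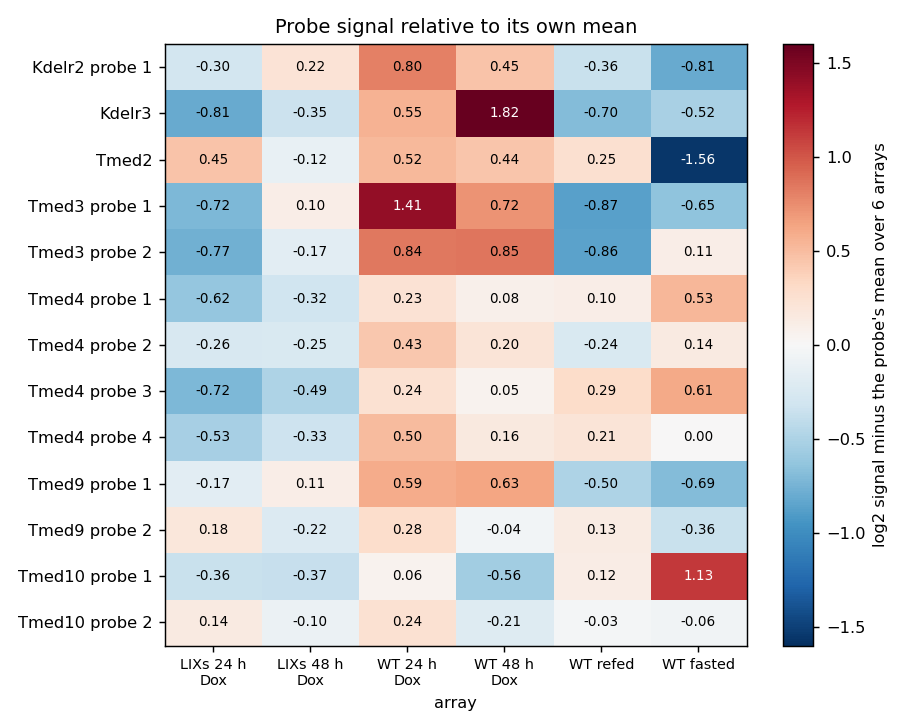
Each cell gives a probe's log2 signal on 1 array minus that probe's mean over the 6 arrays, for the 13 probes of the averaged comparison. Kdelr3 peaks on the WT array at 48 h (1.82), Tmed2 is lowest on the fasted array (-1.56), and the first Tmed10 probe is highest there (1.13).

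The refed and fasted WT arrays differed by at least 2-fold for 2 of 13 probes, a smaller share than the 23.7% of all probes in that comparison, so the count is no result about the receptors. Without background correction it was 0. Tmed2 read 189 refed and 119 fasted, the latter below detection. Its difference depended on the background step, at 1.81 as reported, 1.08 with an offset of 50 and 0.67 without correction. The first Tmed10 probe read 628 refed and 1165 fasted, a difference of -1.0, but the second read 609 and 597, a difference of 0.034, so the 2 probes of that gene disagreed. The Tmed3 probes differed by -0.22 and -0.97 and Kdelr3 by -0.18. When the WT array at 48 h of Dox was set against that at 24 h, Kdelr3 was the 1 member probe that differed by 2-fold, against 3.24% of all probes; this comparison shares its arrays with both genotype pairs.

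As a description over the 6 arrays, which share the pools and their normalization, the brightest probes of Kdelr2, Tmed3 and Tmed9 had similar patterns, with Pearson's r of 0.93 for Kdelr2 and Tmed3, 0.96 for Kdelr2 and Tmed9, and 0.91 for Tmed3 and Tmed9. Kdelr3 correlated with them at 0.69, 0.77 and 0.81. In the same order Tmed2 was at 0.69, 0.41 and 0.66, and the first Tmed4 probe at -0.11, 0.19 and -0.15. The first Tmed10 probe ran the other way, at -0.62 with Kdelr2, -0.68 with Tmed9 and -0.84 with Tmed2. With the first Tmed4 probe its r was 0.74. This Tmed10 probe was highest on the fasted array, at 1.13 from its mean, where the second Tmed10 probe was at -0.06 from its own. No r was computed for that second probe, so the opposite pattern holds for 1 probe and not for the gene. Among 4163 other genes detected on all arrays with an SD of at least 0.3, those most like Tmed3 were the Golgi SNARE gene Vamp4 (r = 0.997), Tysnd1 (0.995), a peroxisomal protease gene, and Spcs1 (0.995), which encodes a subunit of the signal peptidase. Those most like Kdelr3 were Cflar (0.99), an inhibitor of caspase activation, Odc1 (0.982), the ornithine decarboxylase, and Vars (0.981), the valyl-tRNA synthetase. Those most like the mean profile of the 6 member genes detected on all arrays were Gpr89 (0.993), Erp29 (0.992) and Paip2b (0.989). With so many genes and 6 points, high values of r arise easily.

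The promoters of Kdelr3 and Tmed3, the 2 genes with a probe that fell, and of Tmed10, whose probes differed least, are shown from RefSeq (GRCm38.p6), each 5′ to 3′ on the gene's strand from 250 bases before the start site, with 50 from it on. Kdelr3 lies at chr15:79516158-79516457 (plus strand), Tmed3 at chr9:89704994-89705293 (minus strand) and Tmed10 at chr12:85374668-85374967 (minus strand). Capitals mark matches, on either strand, to the searched motifs.
Kdelr3: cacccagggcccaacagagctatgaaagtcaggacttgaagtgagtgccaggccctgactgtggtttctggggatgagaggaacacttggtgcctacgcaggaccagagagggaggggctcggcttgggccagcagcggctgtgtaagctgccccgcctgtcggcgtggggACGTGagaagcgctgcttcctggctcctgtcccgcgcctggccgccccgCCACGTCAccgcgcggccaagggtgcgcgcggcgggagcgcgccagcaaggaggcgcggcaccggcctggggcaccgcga
Tmed3: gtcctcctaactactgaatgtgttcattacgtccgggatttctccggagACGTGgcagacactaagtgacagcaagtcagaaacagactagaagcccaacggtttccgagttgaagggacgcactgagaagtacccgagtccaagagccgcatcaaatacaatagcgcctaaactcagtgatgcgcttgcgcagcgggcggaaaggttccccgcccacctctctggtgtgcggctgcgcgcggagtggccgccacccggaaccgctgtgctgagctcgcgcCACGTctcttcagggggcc
Tmed10: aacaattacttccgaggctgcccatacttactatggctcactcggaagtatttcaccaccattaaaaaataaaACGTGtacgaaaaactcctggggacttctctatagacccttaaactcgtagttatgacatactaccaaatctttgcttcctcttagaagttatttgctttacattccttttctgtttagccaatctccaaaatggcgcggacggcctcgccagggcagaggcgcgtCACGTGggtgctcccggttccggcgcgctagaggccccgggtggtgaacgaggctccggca

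Sequences were matched for 6 of the 9 genes, and 5 motifs were searched on both strands. TGACGTGG, the unfolded protein response element (UPRE) bound by Xbp1s and ATF6, occurred in 1 of the 6 promoters, that of Kdelr3, from -30 to -23 on the opposite strand, and in 0.676% of all 32851 promoter windows of this length. The shorter ACGTG core, which the UPRE contains, occurred in 4, those of Kdelr3, Tmed3, Tmed9 and Tmed10, and in 19.6% of all windows. Both Tmed3 and Tmed10 thus carry it, and its relation to the array signal was not tested. The ER stress response element (CCAAT and CCACG separated by 9 bases), its second form (ATTGG and CCACG separated by 1 base) and the C/EBP-ATF composite TTGCATCA had 0 matches in these 6 windows, and occurred in 0.119%, 0.0365% and 0.895% of all windows. A match is a description of the letters and not of binding.

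Of the listed ligands of the KDEL receptors, 1 passed the test. All 11 genes on a list of soluble ER proteins with a KDEL-type tail had an averaged difference below 0, between -1.22 and -0.013. The median was -0.58, and 1 fell and 0 rose. This list is not every such gene, and it was chosen with earlier results of these data known. At 48 h Hspa5 and Erp44 were above 0, at 0.069 and 0.21. The Erp44 probe then read 131 under the LIXs label and 125 under the WT label, next to the detection level of 126. The Hspa5 probe read 208 and 203. With 1 array per group, neither value shows that its gene rose or stayed level. Over all named genes, on their brightest probe, 49.3% were below 0, 1.48% fell and the median was 0.0073. Erp29, an ER protein of the disulfide isomerase family, fell by 1.11 ± 0.22 (limma adjusted p = 0.0479). It read 3907 and 4803 under the LIXs label at 24 h and 48 h, and 9661 and 8894 under the WT label. The list's median was -0.89 at 24 h and -0.31 at 48 h. The brightest probes of the 7 receptor genes had medians of -0.85 and -0.51 at those times, and of -0.64 over both.

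Other cargo receptors between ER and Golgi lay on either side of 0. Of 13 genes 8 were below 0, a share of 61.5% beside the 49.3% of all named genes. Of the 13, 1 fell and 0 rose, with a median of -0.12, where 1.48% of all named genes fell. Mcfd2, a cofactor of the lectin receptor for coagulation factors, fell by 1.06 ± 0.23 (adjusted p = 0.0497). It read 3045 and 3923 on the arrays labelled LIXs at 24 h and 48 h, and 7494 and 6762 on those labelled WT, without overlap. The COPI coat and its Arf cycle carry KDEL receptors and p24 proteins back to the ER. Of the 14 tested genes on this list, 13 were below 0, beside the same 49.3%. Among them 1 fell, beside the same 1.48%, and 0 rose, with a median of -0.44. Both lists were chosen with earlier results of these data known. Arfgap3, which triggers hydrolysis of GTP on Arf, fell by 1.32 ± 0.21 (adjusted p = 0.0445).

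**Figure D4:**
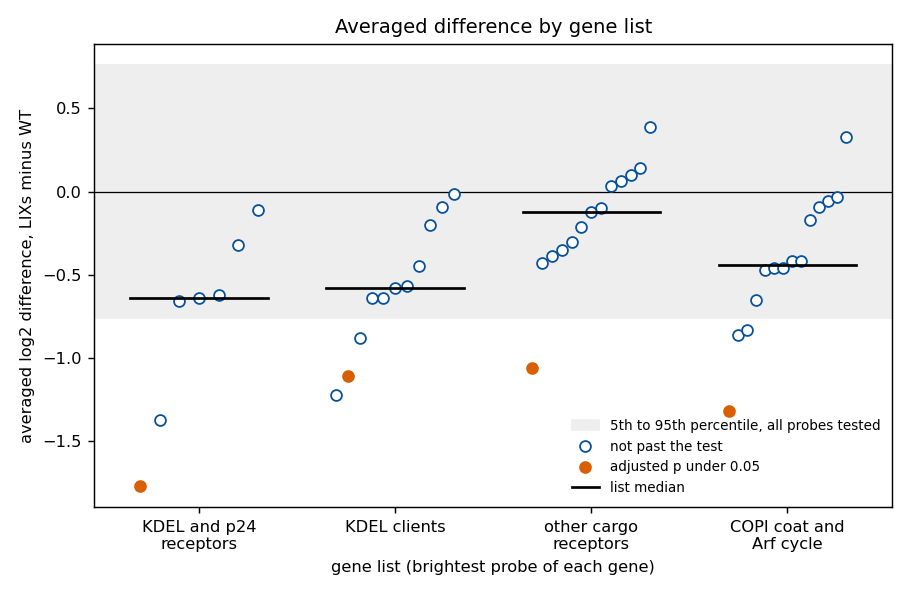
Each point is the averaged log2 difference (LIXs minus WT) of 1 gene's brightest probe, grouped by list; filled points have an adjusted p under 0.05, lines are list medians, and the grey band spans the 5th to 95th percentile of all probes tested. The medians are -0.64 for the receptors, -0.58 for KDEL clients, -0.12 for other cargo receptors and -0.44 for the COPI coat and Arf cycle.

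The further p24 genes could not be followed. Of Tmed1, Tmed5, Tmed6, Tmed8 and Tmed11, 3 had a probe and 0 were detected on enough Dox arrays to be tested. Genes that remodel the GPI anchor, a mark that p24 proteins recognise, showed 0 of 2 tested genes past the limma test. Mppe1 differed by -0.37 ± 0.22 (adjusted p = 0.335) and Pgap2 by 0.32 ± 0.23 (adjusted p = 0.414), and neither gene had an unadjusted p under 0.05.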

How the data were processed

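Liver RNA was measured on 6 Illumina arrays. Per the labels' protocols, it was DNase-treated and converted to biotinylated cRNA. The authors deposited a linear intensity for each of 45281 probes, made with GenomeStudio per the submitters' processing notes; no source used here gives its version, normalization or background method. The sorted log2 values of the deposited arrays differ by at most 0.0199, so they were taken as normalized between arrays. A second table was not used, because its 6 signal columns match no sample.

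From these values, background (mode 109, SD 7.62 from the values below the mode, mirrored) was removed with limma's normexp (limma 3.58.1, R 4.3.3), with an offset of 16, quantile normalization and log2. A probe was detected above 126, a level exceeded by a share of 0.01 of the mirrored background. The average of LIXs minus WT was fitted with limma (lmFit, eBayes) on the 4 Dox arrays with time as a block, for every probe detected on at least 2 of them, with Benjamini-Hochberg adjustment at 0.05 over all probes. There was 1 residual degree of freedom beside 8.7 from the prior, whose SD was 0.23, so the SE comes mostly from all probes together. On the prior's SD, 2 arrays differ by an SD of 0.32. With 1 pool per group there were no replicate pools. The residual is the change of the difference between labels from 24 h to 48 h, and the prior is built from it over all probes. P-values and this SD thus do not measure the spread between pools of 1 group or between animals. Time passed for 0 probes. Pairs of arrays had no test and were counted at 2-fold. Gene symbols came from the platform annotation, with 34885 probes of 1 symbol, 18 of several and 10378 of none. Lists used each gene's brightest probe. Lists covered KDEL clients, other cargo receptors, COPI and Arf, other p24 genes, GPI remodelling and cell type markers. In each list the named genes are those that passed, up to 4, or else the 2 with the largest difference, and likeness was ranked by Pearson's r over the 6 arrays. The planned sequence rule for KDEL clients was replaced by its named fallback list. Members and lists were chosen with earlier results of these data known. The fit was tested on simulated data.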

Additional observations from a re-analysis of the deposited data

Results flagged for a closer look

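Tmed10, the delta subfamily p24 gene, had opposite directions at the 2 times on both detected probes. On the first probe the array labelled LIXs differed from the one labelled WT by -0.42 at 24 h and by 0.20 at 48 h. On the second the differences were -0.10 and 0.11. With 1 array per group the difference between times was not tested. The sizes on the second probe are under the SD of 0.32 that the prior gives for 2 arrays, which rests on no replicate pools.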

How the results depend on the processing

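The averaged comparison passed 344 of 13353 probes, 2 of them members. The passed counts were 1895 and 8 without background correction, 1973 and 8 with an offset of 50, and 1880 and 8 with a prior variance that follows the signal. They were 0 and 0 without a filter on dim probes, at the detection level that leaves a share of 0.05 above it, and without the time block, although limma gave 5423, 3582 and 2888 probes an unadjusted p under 0.05. Median centring gave 219 probes and 2 members, the brightest probe per gene 594 and 2, and the mean probe 685 and 2. Leaving out 1 array gave 0 to 63 probes and 0 to 0 members; the counts were 0 without the array labelled LIXs at 24 h (1009 at an unadjusted p under 0.05) and without the one labelled WT at 24 h (3004). The cause was not tested. Without background correction, with an offset of 50, with the brightest probe and with the mean probe, the 2-fold counts were 348, 574, 694 and 532 at 24 h (1103 as reported). In the same order they were 63, 144, 326 and 260 at 48 h (554), 404, 1166, 2144 and 1727 for refed against fasted (3867), and 80, 161, 304 and 235 for WT at 48 h against 24 h (479). The last 2 settings test genes, which are fewer than probes. The median of the member probes stayed between -0.78 and -0.50 under all alternatives. Signs turned when 1 array was left out for the second Tmed9 probe (0.022 without WT at 24 h and 0.059 without LIXs at 48 h, in a range from -0.34), the first Tmed10 probe (0.20 without WT at 24 h, in a range from -0.43) and the second (-0.12 without LIXs at 24 h and -0.22 without WT at 48 h, in a range up to 0.23). Kdelr3 ranged from -2.41 to -1.13 and passed under 6 of 13 alternatives; the second Tmed3 probe ranged from -1.61 to -1.01 and passed under 4 of 11. Among the 3-array fits Kdelr3 had an adjusted p of 0.0585 to 0.622. The labels carry no replicate numbers; the time block paired the LIXs and WT arrays of each time in the reported comparison, and its removal is given above. For dim probes near background, ratios depend on the background step.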

Other observations

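Among the other cargo receptors, Lman1 and Mcfd2, which form a complex that carries coagulation factors V and VIII, did not move together; Lman1 was chosen after its values were seen. Lman1 read 926 and 717 on the arrays labelled LIXs at 24 h and 48 h, and 944 and 674 on those labelled WT, with an averaged difference of 0.036 ± 0.21 (limma adjusted p = 0.937). It read 597 on the refed and 244 on the fasted array, a difference of 1.74, whereas Mcfd2 differed by -0.59 there. These feeding differences have no replicate.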
